A study of Mus musculus with 109 samples.

Results

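The genes described here are 10 products of the airway lining that the conducting airways of the lung secrete or carry at their surface: Scgb1a1, Scgb3a1, Scgb3a2, Bpifa1, Bpifb1, Muc5b, Muc5ac, Reg3g, Gp2 and Ltf. Members were taken by gene symbol in the platform's annotation. Of 25697 probes on the array, 11 carried such a symbol, and they covered 8 of the 10 genes, among 16593 genes named on the array. Muc5b and Scgb3a2 had no probe with that symbol and were not analysed here. All 8 genes passed a filter that kept probes detected on at least 6 arrays, so each of them was tested.

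Club cells are the non-ciliated secretory cells of the bronchioles. They release secretoglobins, small proteins of which Scgb1a1 is the most abundant, and they share the airway surface with ciliated cells and with goblet cells, which secrete the gel-forming mucin Muc5ac. Members of the BPI-fold family (Bpifa1, Bpifb1), the lectin Reg3g, which kills Gram-positive bacteria, and the iron-binding protein lactoferrin (Ltf) belong to the innate defence of wet epithelia. Gp2 is a membrane-anchored glycoprotein that binds bacterial fimbriae, best known from pancreatic acinar cells and from M cells of the gut. Ltf is also a granule protein of neutrophils, so its signal in whole lung can come from more than epithelium.

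The study measured total RNA of whole mouse lungs on single-colour Illumina bead arrays after 6 months of exposure, on 5 days per week, to mixed main-stream and side-stream smoke of 3R4F research cigarettes or to filtered air. Genotype or strain and exposure gave 8 groups. Each genotype or strain is called a background below, without regard to the strain that carries a mutation. Mice lacking Fam13a (Fam13a-/-) contributed 13 smoke and 6 air arrays. Mice heterozygous for Hhip (Hhip+/-) contributed 14 smoke and 12 air arrays. NZW/LacJ mice contributed 6 smoke and 8 air arrays. C57BL/6J wild-type mice, the reference for all 3, contributed 28 smoke and 22 air arrays. Both genes lie near human loci for chronic obstructive pulmonary disease. The labels give no age, sex, litter or slide, and nothing states that the arrays of a group are separate animals, so p-values measure the spread between these arrays. Values are log2 signals after background correction and quantile normalization (a step of 1 is a doubling of signal), and "detected" means a detection p-value under 0.01 on that array.

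Between 36% and 53.9% of probes were detected per array (median 49.9%), and the number of arrays limits the precision. The probes for the targeted genes did not cleanly separate the genotypes. Hhip averaged 6.54 ± 0.29 in smoke-exposed Hhip+/- lungs and 6.57 ± 0.48 in smoke-exposed C57BL/6J lungs (SD, n = 14 and 28). Fam13a averaged lower in Fam13a-/- than in C57BL/6J lungs, 5.44 ± 0.50 against 6.07 ± 0.69 in smoke and 5.70 ± 0.33 against 6.12 ± 0.85 in air (SD), with overlapping ranges. Its probe was detected on 7 of 13 Fam13a-/- arrays in smoke and 5 of 6 in air, against 20 of 28 and 15 of 22 C57BL/6J arrays. The positions of those probes relative to the deletions are unknown, so the genotype could not be checked. Titles of all 14 NZW/LacJ samples call them C57, and the strain label was followed. In 12 of them H2-Ea, a class II gene that C57BL/6 mice do not express, was at 9.09 or higher, but NZW/LacJ smoke replicate 5 (4.74) and air replicate 5 (4.37) lacked it. It was also detected on 1 C57BL/6J array, smoke replicate 6, at 8.03, against a median of 4.44 in that group. The NZW/LacJ comparisons below are given with and without the 2 arrays that lacked H2-Ea. Leaving out the C57BL/6J array, or all 3 of these arrays, ended no call of a member; leaving out all 3 added Bpifb1 to the genes higher in Fam13a-/- than C57BL/6J lungs after smoke (1.91 ± 0.60, adjusted p = 0.038) and Muc5ac to those higher in NZW/LacJ lungs (0.73 ± 0.33, adjusted p = 0.0494). The lungs carried the defining marker of club cells at the top of the scale, since Scgb1a1 was detected on all arrays and ranked between 1 and 16 among all probes on each of them. Of 20 markers of basal cells and large airways 5 were measured in the tests, Aqp3, Azgp1, Lrrc26, Ngfr and Ltf itself, while the defining basal cell marker Krt5 was detected on 0 arrays and Trp63 on 1. The summed signal of the 4 other than Ltf had a median of 10.22 in smoke-exposed and 9.95 in air-exposed Fam13a-/- lungs, and of 9.84 and 9.91 in smoke-exposed and air-exposed C57BL/6J lungs.

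The regions just before the transcription start are shown for 4 of the 6 members that varied together. They are the 250 bases before the start site in RefSeq (GRCm38.p6), written 5' to 3' on the gene's own strand, with matches to searched motifs in capitals. Gp2 is on the minus strand at chr7:119459273-119459522, Reg3g on the minus strand at chr6:78468875-78469124, Bpifa1 on the plus strand at chr2:154142630-154142879 and Scgb3a1 on the plus strand at chr11:49663345-49663594.
Gp2: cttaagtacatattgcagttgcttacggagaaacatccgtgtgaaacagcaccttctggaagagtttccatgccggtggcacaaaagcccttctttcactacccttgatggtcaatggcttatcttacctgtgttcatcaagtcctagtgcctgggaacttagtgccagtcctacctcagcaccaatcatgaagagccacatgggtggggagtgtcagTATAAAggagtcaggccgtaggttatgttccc
Reg3g: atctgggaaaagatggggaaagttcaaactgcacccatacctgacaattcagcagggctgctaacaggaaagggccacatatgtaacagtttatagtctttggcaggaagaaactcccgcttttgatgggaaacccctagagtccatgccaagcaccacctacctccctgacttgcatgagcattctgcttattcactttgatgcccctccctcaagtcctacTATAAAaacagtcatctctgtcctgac
Bpifa1: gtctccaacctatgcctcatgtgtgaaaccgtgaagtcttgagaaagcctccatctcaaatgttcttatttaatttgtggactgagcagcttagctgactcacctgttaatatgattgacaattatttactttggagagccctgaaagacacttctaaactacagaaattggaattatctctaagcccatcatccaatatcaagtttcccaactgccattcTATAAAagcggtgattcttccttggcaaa
Scgb3a1: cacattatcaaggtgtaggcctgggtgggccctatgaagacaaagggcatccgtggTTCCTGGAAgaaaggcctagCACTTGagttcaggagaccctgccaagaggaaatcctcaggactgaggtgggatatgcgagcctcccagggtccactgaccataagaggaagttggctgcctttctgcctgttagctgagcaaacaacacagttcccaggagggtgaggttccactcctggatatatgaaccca
Gp2, Reg3g and Bpifa1 each held TATAAA on the gene's strand, at positions -32, -27 and -29 from the start site, a string found in 8.32% of 32851 promoters of 300 bases (250 before and 50 after the start). Scgb3a1 held CAAGTG, read as CACTTG, at -174 (the core of NKX2-1 sites, 13.6% of promoters, both strands) and TTCNNNGAA, as TTCCTGGAA, at -194 (the STAT core, 8.3%, both strands). In all, 7 promoters were found for 6 members. Those of Bpifb1 and Ltf, which are not printed, held no TATAAA on the gene's strand. A promoter of Bpifb1 held TTCNNNGAA, as TTCCAGGAA, at -146. None of the 7 held the forkhead string TGTTTAC on either strand, which 3.65% of promoters hold. A match is a run of letters and not a site shown to be bound.

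**Figure D1:**
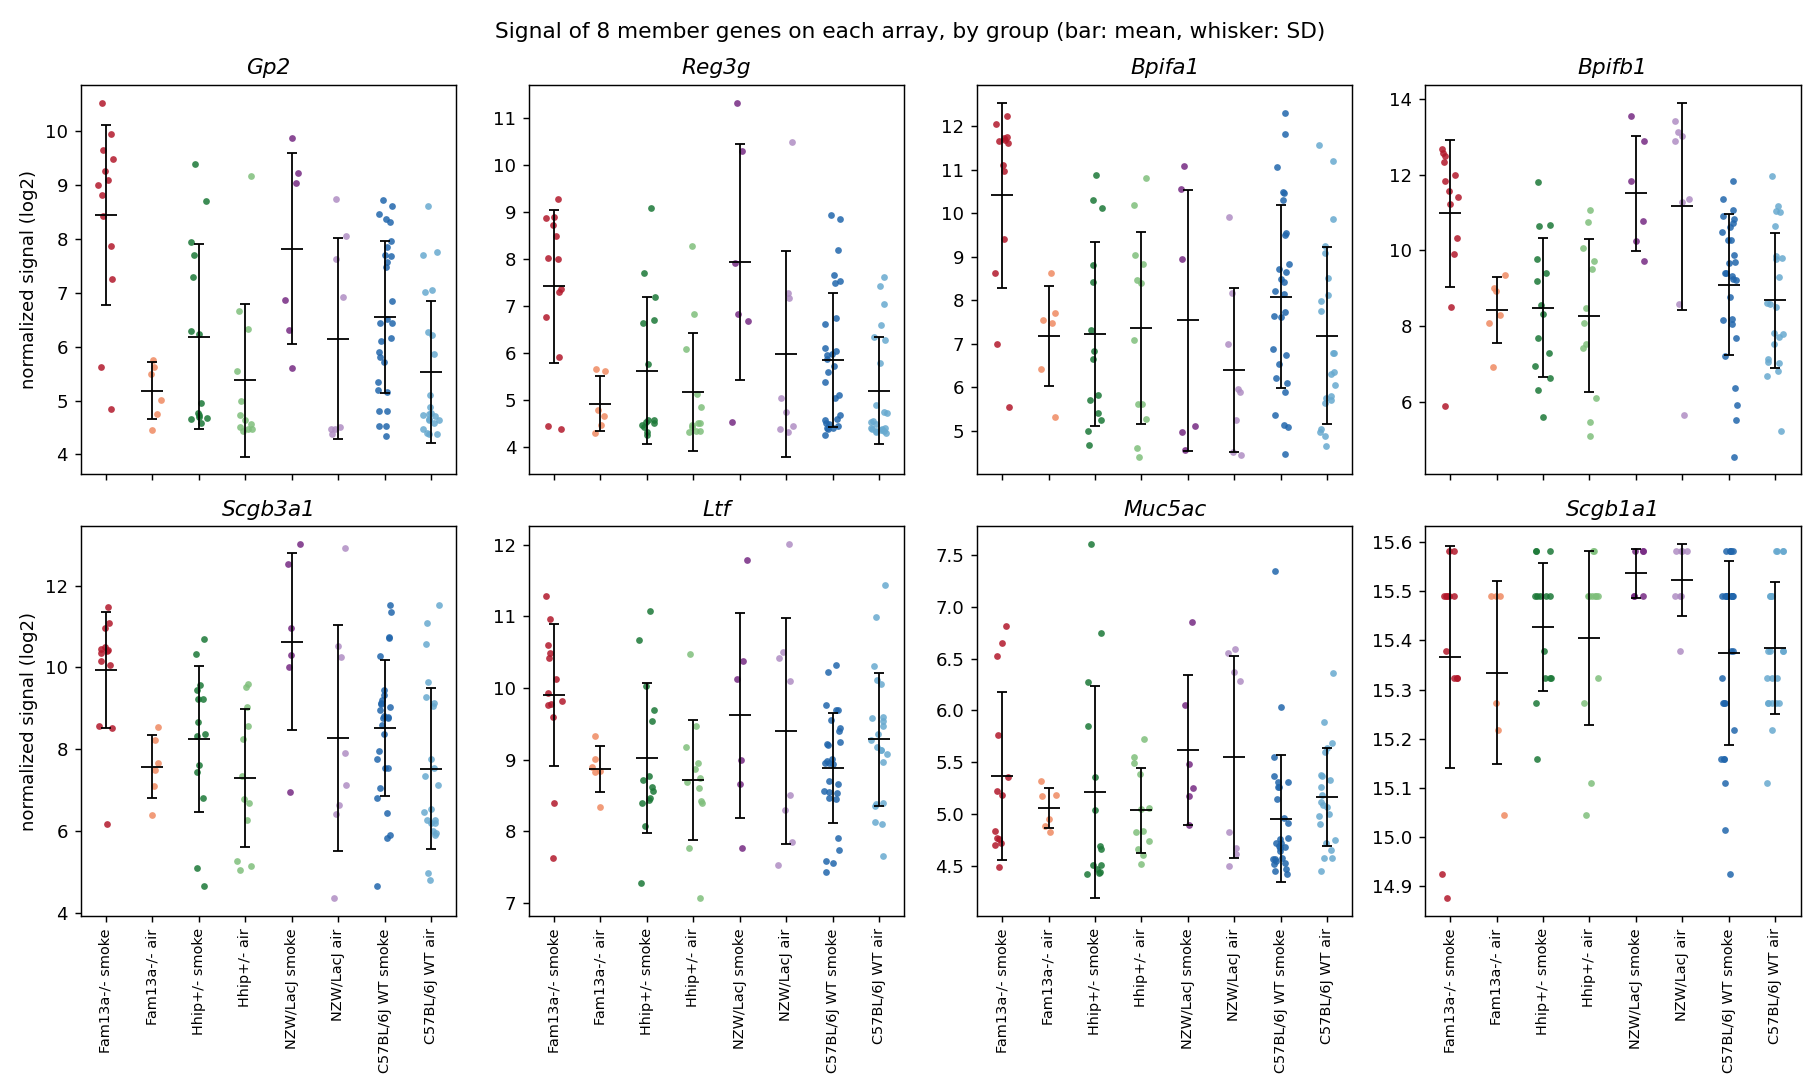
Log2 normalized signal (vertical axis) of the 8 measured genes in each of the 8 groups; each point is an array, the bar is the group mean and the whisker is the SD. Gp2, Reg3g, Bpifa1, Bpifb1 and Scgb3a1 spread over several log2 units within most groups, while Scgb1a1 stays between 14.88 and 15.58 on every array.

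The secretoglobins differed in how much they could show. Scgb1a1 had group means between 15.33 in air-exposed Fam13a-/- lungs and 15.54 in smoke-exposed NZW/LacJ lungs. Its raw signal of 26494 to 65310 lay at the upper end of the scanner's range, where differences are compressed. It also ranked between 1 and 16 on every array, and quantile normalization gives each rank the same value on all arrays. Its normalized signal could therefore differ little between arrays, whatever its raw signal. Scgb3a1, a secretoglobin of airway secretory cells, had lowest, median and highest signals of 6.17, 10.39 and 11.47 in smoke-exposed Fam13a-/- lungs, against 6.39, 7.58 and 8.53 in air-exposed Fam13a-/- lungs. In smoke-exposed C57BL/6J lungs the same gene spanned 4.65, 8.77 and 11.54, against 4.80, 6.82 and 11.53 in air. In C57BL/6J mice 22 of 28 smoke arrays were above the air mean, and 1 was above the highest of 22 air arrays. In Fam13a-/- mice 12 of 13 smoke arrays were above the air mean. There 11 were above the highest air array, the lowest of them at 8.56 against 8.53. That bar was set by only 6 air arrays, so the 2 counts above the highest air array are not alike. In Hhip+/- mice Scgb3a1 spanned 4.66, 8.52 and 10.69 in smoke, against 5.05, 7.06 and 9.61 in air, and in NZW/LacJ mice 6.95, 10.64 and 13.01 in smoke, against 4.36, 7.52 and 12.93 in air. Without the NZW/LacJ arrays that lacked H2-Ea the Scgb3a1 medians were 10.97 in smoke and 7.91 in air.

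Bpifa1 and Bpifb1, secreted proteins of the upper and conducting airways, were among the most variable genes on the array. Bpifa1 spanned 5.54, 11.60 and 12.22 in smoke-exposed Fam13a-/- lungs (lowest, median and highest), against 5.33, 7.51 and 8.63 in air. It spanned 4.46, 8.18 and 12.31 in smoke-exposed C57BL/6J lungs, against 4.66, 6.57 and 11.56 in air. The median of the Fam13a-/- smoke arrays (11.60) thus lay just above the highest C57BL/6J air array (11.56) and below the highest C57BL/6J smoke array (12.31). The ranges of these groups overlapped over most of their length. Bpifa1 medians in Hhip+/- lungs were 6.74 in smoke and 7.74 in air, and in NZW/LacJ lungs 7.03 in smoke and 5.93 in air (5.11 and 5.97 without the arrays that lacked H2-Ea). Bpifb1 spanned 5.87, 11.58 and 12.67 in smoke-exposed Fam13a-/- lungs, against 6.93, 8.62 and 9.35 in air. Its medians were 8.45 and 8.29 in Hhip+/- smoke and air, and 9.40 and 8.55 in C57BL/6J smoke and air. NZW/LacJ lungs had Bpifb1 medians of 11.31 in smoke and 12.13 in air (10.77 and 12.89 without the arrays that lacked H2-Ea), so this strain was high with and without smoke.

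Gp2 and Reg3g were near background in most air-exposed lungs and high in a subset of arrays of nearly every group. Gp2 was detected on 12 of 13 Fam13a-/- smoke arrays, at 4.85, 9.0 and 10.53, against 3 of 6 air arrays, at 4.46, 5.26 and 5.75. It was detected on 7 of 14 Hhip+/- smoke arrays (4.58, 5.60 and 9.38), against 4 of 12 in air (4.43, 4.69 and 9.17). On NZW/LacJ arrays it was detected on 6 of 6 in smoke (5.60, 7.95 and 9.88), against 4 of 8 in air (4.38, 5.72 and 8.75), and its medians without the arrays that lacked H2-Ea were 6.86 in smoke and 6.93 in air. In C57BL/6J lungs it was detected on 21 of 28 smoke arrays (4.34, 6.44 and 8.72), against 8 of 22 air arrays (4.38, 4.75 and 8.62). Detection was thus more frequent in smoke than in air in all 4 backgrounds, a count for which no test was run. Reg3g was detected on 11 of 13 Fam13a-/- smoke arrays (4.40, 8.0 and 9.26), against 2 of 6 air arrays (4.30, 4.74 and 5.67). Its medians were 4.58 and 4.53 in Hhip+/- smoke and air, 7.38 and 4.91 in NZW/LacJ smoke and air (6.83 and 5.06 without the arrays that lacked H2-Ea), and 5.66 and 4.55 in C57BL/6J smoke and air. The highest Reg3g signals of the series, 11.32 and 10.47, were in NZW/LacJ smoke replicate 3 and NZW/LacJ air replicate 3.

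Ltf was detected everywhere and moved less. Its lowest, median and highest signals were 7.62, 9.93 and 11.28 in smoke-exposed Fam13a-/- lungs, against 8.34, 8.86 and 9.33 in air. Its medians in the other groups lay between 8.66 in Hhip+/- smoke and 9.55 in NZW/LacJ smoke. Muc5ac, the goblet cell mucin, was detected on 31 arrays in all, of which Fam13a-/- mice contributed 5 from smoke and 1 from air. Its group medians lay between 4.68 in Hhip+/- smoke and 5.55 in NZW/LacJ air, and its highest signal was 7.61, in Hhip+/- smoke. When the 8 group means of each gene were ranked, neighbours in the order differed by less than the within-group SD with a single exception, Bpifa1, where smoke-exposed Fam13a-/- lungs (10.41) stood above smoke-exposed C57BL/6J lungs (8.08) by more than its within-group SD of 2.11.

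**Figure D2:**
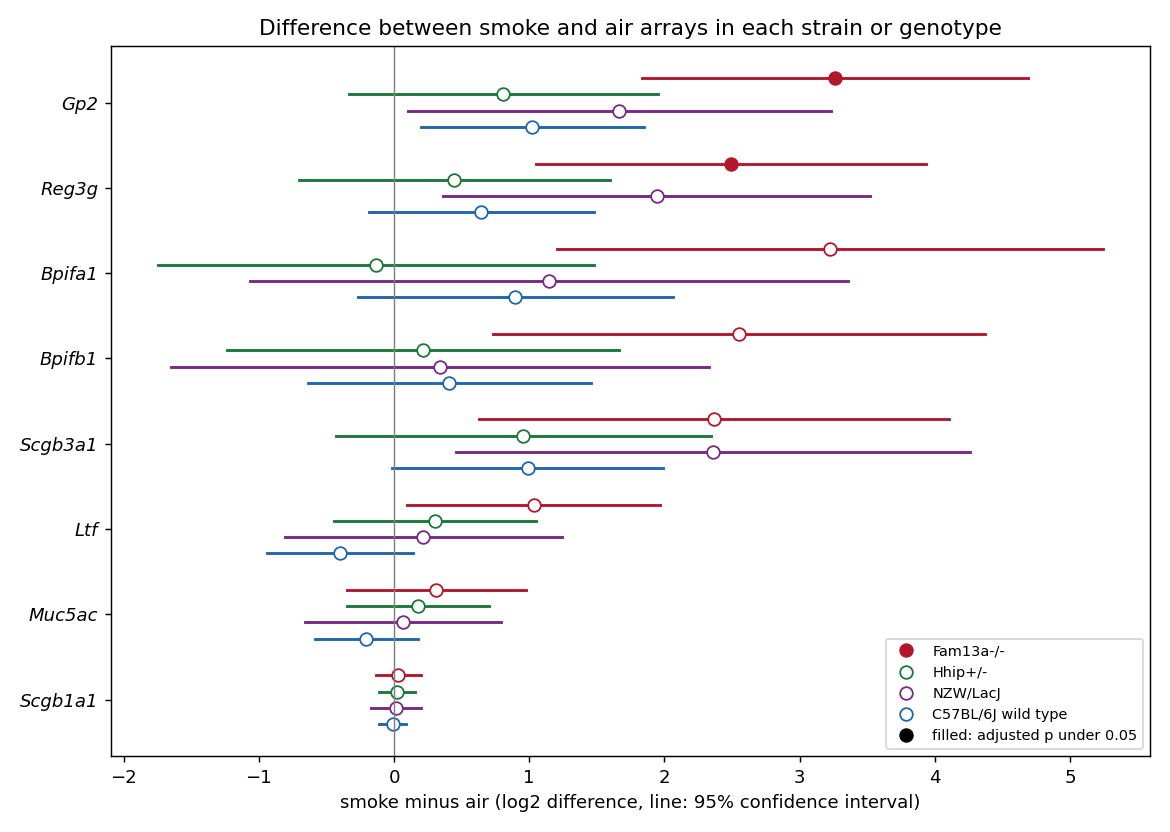
Smoke minus air difference in log2 signal (horizontal axis) for the 8 genes in each of the 4 backgrounds; points are fitted differences, lines are 95% confidence intervals, and filled points have an adjusted p under 0.05. Only Gp2 and Reg3g in Fam13a-/- mice are filled, at 3.26 and 2.50.

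The question of what chronic smoke did to these genes was asked within each background. In Fam13a-/- mice 2 of the 8 genes rose, where 1.31% of the 11346 genes tested rose and 2.18% changed in either direction. Gp2 averaged 8.45 ± 1.67 in smoke-exposed lungs and 5.18 ± 0.52 in air-exposed lungs (SD, n = 13 and 6), a difference of 3.26 ± 0.72 (SE; limma, adjusted p = 0.00498). Reg3g averaged 7.42 ± 1.63 in smoke and 4.93 ± 0.58 in air, a difference of 2.50 ± 0.73 (adjusted p = 0.0446). With Gp2 detected on 3 and Reg3g on 2 of the 6 air arrays, the sizes depend on how signals near background were treated: the authors' deposited values gave 1.61 for Gp2 and 1.04 for Reg3g (adjusted p = 0.00121 and 0.0672), and an offset of 50 gave 2.53 and 1.79 (adjusted p = 0.00193 and 0.0429). Bpifa1 (3.23 ± 1.02, adjusted p = 0.0678), Bpifb1 (2.55 ± 0.92, adjusted p = 0.119), Scgb3a1 (2.36 ± 0.88, adjusted p = 0.131) and Ltf (1.03 ± 0.47, adjusted p = 0.248) did not pass. Differences of that size in the first 3 genes, set beside their wide standard errors, were not resolved at this number of arrays. The less bright Scgb3a1 probe did pass (2.58 ± 0.70, adjusted p = 0.0315), so its 2 probes gave different calls for similar differences. Muc5ac differed by 0.31 ± 0.33 (adjusted p = 0.698) and Scgb1a1 by 0.03 ± 0.09 (adjusted p = 0.897). Over the 8 genes the median difference was 2.43, against -0.03 over all genes tested. The members were chosen with earlier results of these data known, and most of them varied together. Neither this median nor the share of members that rose is therefore a test of the set. In whole lung, more cells of a type and more RNA per cell cannot be told apart.

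The rise was carried by 11 of the 13 smoke-exposed Fam13a-/- arrays. For Gp2, Reg3g, Bpifb1 and Ltf, each of those 11 was above every air array, and replicates 3 and 4 were not. The split differed for Bpifa1, where replicates 3, 4 and 8 were not above every air array, and for Scgb3a1, where replicates 3 and 8 were not. Gp2 was 9.09, 9.48, 8.42, 7.26, 9.0, 7.87, 9.94, 9.26, 9.66, 8.81 and 10.53 on the 11 arrays, 4.85 and 5.62 on replicates 3 and 4, and 5.50, 4.46, 5.75, 5.02, 4.75 and 5.63 on the 6 air arrays. The gap between the lowest of the 11 and the highest air array was therefore 7.26 against 5.75, and replicates 3 and 4 fell inside the air range. Both of those arrays nevertheless carried the smoke-induced gene Nqo1 at 7.96 and 9.76, above the highest Fam13a-/- air array at 6.29. Leaving out replicate 3 raised the count of genes that rose to 4, with Bpifa1 (3.63, adjusted p = 0.0281) and Bpifb1 (2.98, adjusted p = 0.0455) added, and leaving out replicate 4 added Bpifa1 (3.51, adjusted p = 0.0447). The Gp2 call remained with each of the 19 arrays left out in turn. The Reg3g call was lost in 14 of those 19, with adjusted p between 0.0544 and 0.119, so it sat at the threshold.

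**Figure D3:**
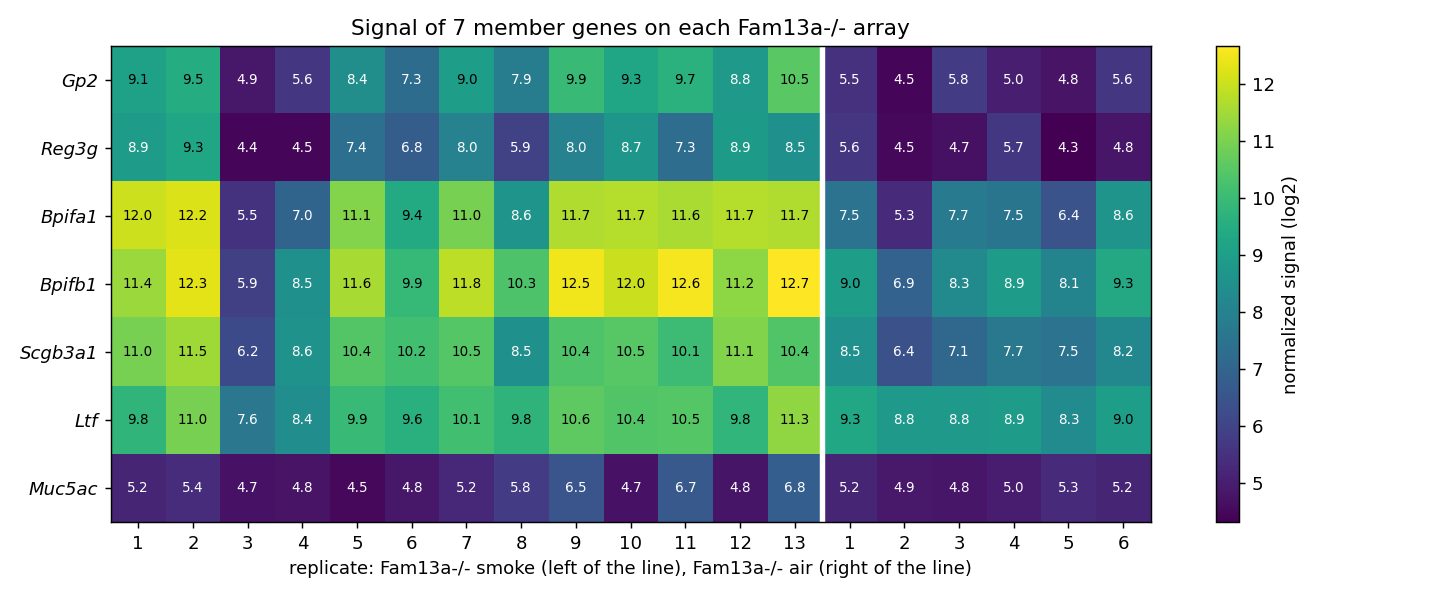
Log2 signal (colour) of 7 genes (vertical axis) on each Fam13a-/- array (horizontal axis), smoke-exposed arrays left of the line and air-exposed arrays right of it. Smoke replicates 3 and 4 do not exceed the highest air array for Gp2, Reg3g and Bpifb1, while the other 11 smoke arrays do. For Reg3g the lowest of those 11 is at 5.93, against 5.67 for the highest air array.

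Transcripts of other tissue compartments moved on the same arrays. The summed signal of 10 heart muscle genes (log2 of the sum) spanned 11.70, 14.65 and 15.06 in smoke-exposed Fam13a-/- lungs, against 11.75, 13.21 and 14.45 in air. Replicates 3 and 4 had the lowest of these values among smoke arrays, 12.36 and 11.70, and the other 11 lay between 13.98 and 15.06. None of the 10 heart muscle genes passed in the smoke comparison of Fam13a-/- mice, with a median difference of 0.99. The summed signal of 17 ciliated cell markers spanned 14.15, 14.63 and 15.25 in smoke, against 14.09, 14.19 and 14.45 in air, and 2 of the 17 rose, Cfap206 (0.78, adjusted p = 0.0317) and Ccdc39 (0.74, adjusted p = 0.0485). With the heart muscle sum as a covariate, chosen after seeing the data, the Gp2 difference was 2.30 ± 0.60 (adjusted p = 0.0354) and that of Reg3g 1.61 ± 0.63 (adjusted p = 0.21). With the ciliated sum as a covariate, also chosen after seeing the data, Gp2 was at 2.13 ± 0.70 (adjusted p = 0.323) and Reg3g at 1.5 ± 0.72 (adjusted p = 0.645), and neither call remained. The 5 basal cell and large airway markers summed to 10.40, 11.29 and 12.16 in smoke, against 10.22, 10.57 and 10.67 in air, with 0 of the 5 past the threshold and a median difference of 0.49. With the sum of the 4 other than Ltf as a covariate, again chosen after seeing the data, Gp2 was at 2.67 ± 0.71 (adjusted p = 0.0524) and Reg3g at 2.11 ± 0.74 (adjusted p = 0.194). The part of airway or heart tissue in the sampled lung in these differences was not tested. Those fits are no test of it, because the sums came from the same arrays and themselves differed between the groups compared.

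**Figure D4:**
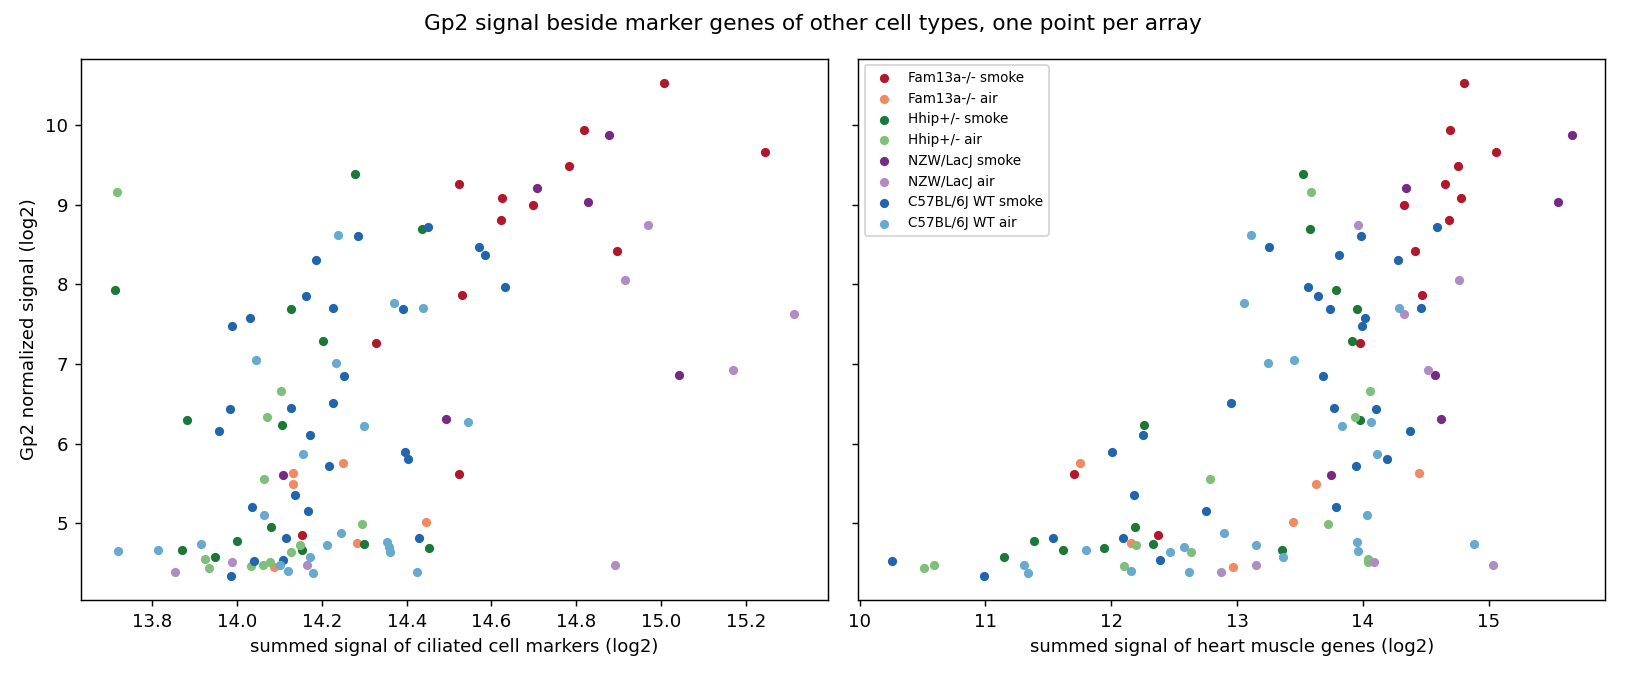
Gp2 log2 signal (vertical axis) against the log2 summed signal of the ciliated cell markers and of the heart muscle genes (horizontal axes) on every array, coloured by group. High Gp2 lies mostly at high heart muscle sums and is more scattered along the ciliated sums, with within-group r of 0.41 for ciliated markers and 0.59 for heart muscle genes, over the arrays other than the 2 that lacked H2-Ea.

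Genes with related roles were taken from lists that exclude the 8 members unless stated. Of 24 measured club cell markers, Slc16a11 alone rose in smoke-exposed Fam13a-/- lungs (0.97 ± 0.24, adjusted p = 0.0178), and the list's median difference was 0.23. Of 12 goblet cell and mucus genes, 2 rose: the membrane mucin Muc4 (1.01 ± 0.22, adjusted p = 0.00435; detected on 12 of 13 arrays in smoke and 2 of 6 in air) and Ern2, the stress sensor of mucus-producing cells, which was not above background on any of the 6 air arrays. Among 17 antimicrobial genes Cxcl17, a mucosal chemokine-like peptide, rose by 1.5 ± 0.23, or 2.83-fold (adjusted p = 4.13e-06), the single call of that list. Cxcl17 also rose in C57BL/6J (0.80 ± 0.13, adjusted p = 9.19e-06) and in Hhip+/- lungs (0.75 ± 0.18, adjusted p = 0.0367). None of 18 genes that respond to or receive IL-17 and IL-22, a pathway known to induce Reg3g in epithelia, passed. Of 13 neutrophil markers, Ltf among them, 1 rose, the surface protein Cd177 (1.61 ± 0.43, adjusted p = 0.0251), while the list's median difference was -0.35 and its summed signal spanned 13.17, 14.82 and 16.36 in smoke, against 14.53, 15.15 and 15.35 in air. None of 10 M cell genes, 11 type 2 alveolar, 7 type 1 alveolar or 8 follicle B cell genes passed. Of 8 endothelial genes 2 fell, Sox17 by 0.69 (adjusted p = 0.0147) and Tek by 0.51 (adjusted p = 0.0397).

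In C57BL/6J mice, the largest group, 0 of the 8 genes passed between smoke and air, where 0.952% of all genes did. Of the 11346 genes tested 929 had an unadjusted p under 0.05, and 1 of the 8 did. That gene was Gp2, which averaged 6.55 ± 1.41 in smoke and 5.53 ± 1.31 in air (SD, n = 28 and 22), a difference of 1.02 ± 0.42 with a 95% interval of 0.20 to 1.85 (adjusted p = 0.416). Scgb3a1 (0.99 ± 0.51), Bpifa1 (0.90 ± 0.59), Reg3g (0.65 ± 0.42) and Bpifb1 (0.41 ± 0.53) had positive differences, and Muc5ac (-0.21 ± 0.19) and Ltf (-0.40 ± 0.27) negative ones, with adjusted p between 0.616 and 0.933. Of 24 other club cell markers 2 rose in this strain, with a list median of 0.08: Selenbp1 (0.54, adjusted p = 5.13e-09) and the glutathione transferase Gsta3 (0.34, adjusted p = 0.000182). In Hhip+/- mice 0 of 8 passed, where 0.247% of all genes did. None of the 8 had an unadjusted p under 0.05, while 660 of all 11346 genes did. Scgb3a1 differed there by 0.96 ± 0.70, Gp2 by 0.81 ± 0.58 and Bpifa1 by -0.14 ± 0.81.

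In NZW/LacJ mice 0 of 8 passed between smoke and air, where 0.987% of all genes did. Of the 11346 genes tested 1507 had an unadjusted p under 0.05, and 3 of the 8 did. Scgb3a1 averaged 10.63 ± 2.16 in smoke and 8.27 ± 2.76 in air (SD, n = 6 and 8), a difference of 2.36 ± 0.96 (limma, adjusted p = 0.252). The less bright Scgb3a1 probe gave a smaller difference, 1.32 ± 0.77 (limma, adjusted p = 0.455). Reg3g differed by 1.94 ± 0.80 (adjusted p = 0.255) and Gp2 by 1.67 ± 0.79 (adjusted p = 0.342). Without the 2 arrays that lacked H2-Ea the differences of Scgb3a1 (brighter probe), Reg3g and Gp2 were 1.86, 1.71 and 1.13 (adjusted p = 0.358, 0.312 and 0.539). That of Bpifb1 was -0.52 in place of 0.34. Single arrays decided this comparison: without smoke replicate 6, where Reg3g was at 4.54, both Scgb3a1 (3.10, adjusted p = 0.0433) and Reg3g (2.62, adjusted p = 0.0365) passed, and without air replicate 3, where Reg3g was at 10.47, Reg3g passed (2.58, adjusted p = 0.0468).

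Whether smoke acted differently in each background than in C57BL/6J mice was tested as a difference of the 2 smoke effects. None of the 8 genes passed in any background, where 0.0529% of all genes did for Fam13a-/-, 0 for Hhip+/- and 0.414% for NZW/LacJ (1.75%, and again none of the 8, without the arrays that lacked H2-Ea). For Fam13a-/- mice 4 of the 8 had an unadjusted p under 0.05, as did 1389 of the 11346 genes tested. The smoke effect on Gp2 was larger by 2.24 ± 0.83 in Fam13a-/- than in C57BL/6J mice, with a 95% interval of 0.59 to 3.89 (adjusted p = 0.223), and that on Ltf by 1.43 ± 0.55 (adjusted p = 0.238). Reg3g (1.85 ± 0.84, adjusted p = 0.339) and Bpifb1 (2.14 ± 1.06, adjusted p = 0.398) were the other two. The smoke response of these genes is therefore not shown to differ between Fam13a-/- and C57BL/6J mice, even though 2 of them passed in the one background and none in the other.

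Comparing genotypes within an exposure, Fam13a-/- and C57BL/6J lungs differed in none of the 8 genes in air, where 0% of all genes passed (692 had an unadjusted p under 0.05, none of them a member). After smoke, 4 of the 8 were higher in Fam13a-/- lungs, where 3.73% of all genes were higher and 6.19% differed in either direction. Gp2 was higher by 1.90 ± 0.49 (adjusted p = 0.00843; 1.08 with the authors' deposited values, adjusted p = 0.000567), with 8 of 13 Fam13a-/- arrays above the highest of 28 C57BL/6J arrays. Bpifa1 was higher by 2.33 ± 0.69 (adjusted p = 0.0263), Ltf by 1.03 ± 0.32 (adjusted p = 0.0368) and Reg3g by 1.57 ± 0.49 (adjusted p = 0.0374). For these genes fewer of the 13 Fam13a-/- arrays were above the highest C57BL/6J smoke array: 0 for Bpifa1, 5 for Ltf and 1 for Reg3g. Bpifb1 (1.89 ± 0.62, adjusted p = 0.0504) and Scgb3a1 (1.42 ± 0.60, adjusted p = 0.157) did not pass, and Scgb1a1 differed by -0.01 ± 0.06. This comparison and the smoke comparison of Fam13a-/- mice share the same 13 smoke-exposed arrays, so they are not separate evidence. The Gp2 call remained with each of the 13 Fam13a-/- arrays left out. The call for Bpifa1 was lost without replicate 1, 2, 11 or 13 (adjusted p = 0.0519, 0.0567, 0.0535 and 0.054), that for Ltf without replicate 2, 5, 9, 10, 11 or 13 (0.0523 to 0.0968) and that for Reg3g without 9 of the 13 (0.0516 to 0.0897). Bpifb1 passed without replicate 3, 4 or 6 (adjusted p = 0.00977, 0.0295 and 0.0462).

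Other compartments differed in the same comparison. Of 17 ciliated cell markers 13 were higher in smoke-exposed Fam13a-/- than C57BL/6J lungs, among them the tektin Tekt1 (0.70, adjusted p = 0.000262), with a median difference of 0.58 and a summed signal of 14.15, 14.63 and 15.25 against 13.96, 14.18 and 14.63. Of 10 heart muscle genes 3 were higher, Nppa by 2.86 ± 0.73 (adjusted p = 0.00744), with Mybpc3 and Tnni3, and the summed signal was 11.70, 14.65 and 15.06 against 10.26, 13.71 and 14.59. Of 24 club cell markers 5 were higher, among them Slc16a11 (0.74, adjusted p = 0.00197), Cyp2f2, a cytochrome P450 of club cells (0.29, adjusted p = 0.00499), Lypd2 (0.74, adjusted p = 0.00862) and Hp (0.33, adjusted p = 0.0155), with a median difference of 0.22. Muc4 (0.69, adjusted p = 0.00131) and Ern2 (0.64, adjusted p = 0.00162) were the 2 of 12 goblet cell genes that were higher. With the heart muscle sum as a covariate 0 of the 8 members passed, with Gp2 at 1.08 ± 0.41 (adjusted p = 0.15) and Bpifa1 at 1.02 ± 0.54 (adjusted p = 0.38). With the ciliated sum 0 passed as well, with Gp2 at 0.77 ± 0.50 (adjusted p = 0.932), and no gene on the array passed. Of the 5 basal cell and large airway markers 2 were higher, Lrrc26 (0.88 ± 0.17, adjusted p = 0.000445) and Ltf, with a median of 0.52, and with the sum of the 4 other than Ltf as a covariate 0 members passed, with Gp2 at 1.17 ± 0.52 (adjusted p = 0.315). The part of tissue composition in the difference was not tested, and these fits are no test of it, for the same reason as above. Hhip+/- and C57BL/6J lungs differed in 0 of the 8 genes in air and in smoke, where 0.0617% and 1.87% of all genes passed.

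In NZW/LacJ lungs the background share was large, since 43.3% of all genes differed from C57BL/6J in air and 24.8% were higher in NZW/LacJ, and 1 of the 8 members was higher. Bpifb1 averaged 11.17 ± 2.74 in NZW/LacJ and 8.69 ± 1.79 in C57BL/6J air-exposed lungs (SD, n = 8 and 22), a difference of 2.48 ± 0.77 (limma, adjusted p = 0.00572). Without the arrays that lacked H2-Ea it was 3.27 ± 0.77 (adjusted p = 0.000269), its second probe gave 2.09 ± 0.72 (adjusted p = 0.0137), and the call remained with each NZW/LacJ air array left out. With the ciliated sum as a covariate Bpifb1 was at 0.76 ± 0.73 (adjusted p = 0.421), and with the heart muscle sum at 1.23 ± 0.52 (adjusted p = 0.05, which did not pass). Without the arrays that lacked H2-Ea the ciliated fit gave 1.34 ± 0.79 (adjusted p = 0.166) and the heart muscle fit 1.83 ± 0.53 (adjusted p = 0.00277), which passed. The ciliated sum itself spanned 13.85, 14.90 and 15.31 on NZW/LacJ air arrays, against 13.72, 14.22 and 14.55 on C57BL/6J air arrays. After smoke 3 of the 8 were higher in NZW/LacJ lungs, where 25.8% of all genes were higher and 50.7% differed (56.9% without the arrays that lacked H2-Ea, and 46.7% in air), so 3 of 8 was near the background. Bpifb1 was higher by 2.41 ± 0.84 (adjusted p = 0.0118), Reg3g by 2.08 ± 0.66 (adjusted p = 0.00614) and Scgb3a1 by 2.12 ± 0.80 (adjusted p = 0.0213), though the second Scgb3a1 probe gave 0.51 ± 0.64 (adjusted p = 0.523). Without the arrays that lacked H2-Ea these were 2.35, 2.09 and 2.18 (adjusted p = 0.0162, 0.00976 and 0.0227). All 3 calls were lost without smoke replicate 3 (adjusted p = 0.0624, 0.0937 and 0.113), and Reg3g and Scgb3a1 also without smoke replicate 1 (adjusted p = 0.0567 and 0.0928). None of the 3 passed with a term for the NZW/LacJ arrays of consecutive sample numbers, with Bpifb1 at 2.28 ± 1.12 (adjusted p = 0.168), Reg3g at 0.60 ± 0.86 (adjusted p = 0.691) and Scgb3a1 at 0.51 ± 1.04 (adjusted p = 0.795). The run of sample numbers from 36 to 41 holds smoke replicates 1 to 4 and air replicates 3 and 4. That term and smoke exposure are therefore partly confounded in NZW/LacJ mice. With the heart muscle sum as a covariate Bpifb1 was at 0.36 ± 0.59 (adjusted p = 0.641), and with the ciliated sum at 0.72 ± 0.78 (adjusted p = 0.467). Without the arrays that lacked H2-Ea those were 0.25 ± 0.60 (adjusted p = 0.743) and 0.85 ± 0.83 (adjusted p = 0.396).

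Most of the members varied together from array to array, and most of their variation lay within groups. Group explained 32.1% of the variance of Gp2, 26.3% of Bpifb1, 25.6% of Reg3g and 8.56% of Muc5ac, against a median of 18.4% over all genes tested. By within-group SD, Bpifa1 (2.11), Bpifb1 (1.90) and Scgb3a1 (1.82) ranked 2, 3 and 4 of 11346, Reg3g (1.51) and Gp2 (1.49) ranked 12 and 13, and Ltf (0.98) ranked 64. The median over all genes was 0.34, and Scgb1a1, held by its rank at the top of the normalized scale, had 0.16. After subtracting group means, and without the 2 arrays that lacked H2-Ea, Pearson's r was 0.91 between Bpifa1 and Bpifb1, 0.88 between Bpifb1 and Gp2, 0.86 between Reg3g and Gp2 and 0.84 between Scgb3a1 and Reg3g. Ltf had r of 0.83 with Gp2 and 0.66 with Bpifa1. Muc5ac stood lower, with r between 0.39 with Bpifa1 and 0.72 with Ltf. Scgb1a1, whose normalized signal was limited by its rank, had r between -0.10 and 0.14 with the others. These values are descriptions over arrays that were normalized together. The correlation of Gp2 with Bpifb1 ranged from 0.74 over the 6 Fam13a-/- air arrays to 0.97 over the 13 Fam13a-/- smoke arrays and 1.0 over 5 NZW/LacJ smoke arrays, and was 0.92 and 0.88 in C57BL/6J smoke and air. In the Fam13a-/- air arrays, where signals were low, Gp2 had r of 0.32 with Reg3g, 0.54 with Ltf, 0.60 with Scgb3a1 and -0.03 with Muc5ac, so the members did not all vary together there.

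**Figure D5:**
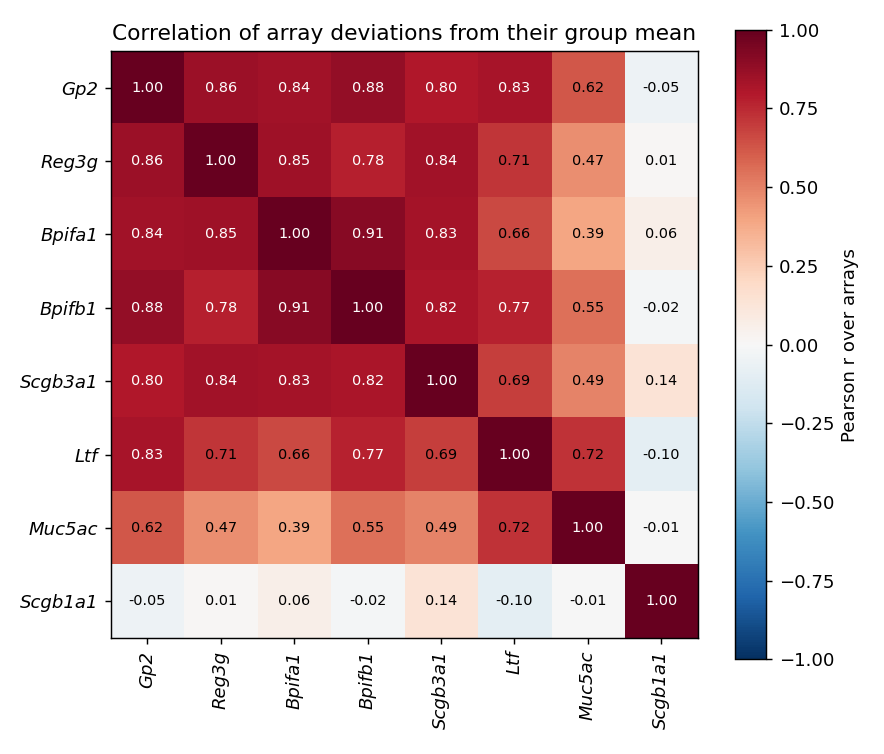
Pearson correlation (colour and number) between the 8 genes over the arrays after subtracting each group's mean. Gp2, Reg3g, Bpifa1, Bpifb1, Scgb3a1 and Ltf form a block between 0.66 and 0.91, Muc5ac is lower and Scgb1a1 is near 0.

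The same arrays were therefore extreme for several members at once. In C57BL/6J smoke, replicate 8 was the highest of 28 arrays for Bpifb1, Bpifa1, Scgb3a1, Gp2, Reg3g and Ltf, and replicate 22 the lowest for Bpifb1, Bpifa1, Scgb3a1 and Ltf. Replicate 8 had Gp2 at 8.72 and Bpifa1 at 12.31, with a heart muscle sum of 14.59 and a ciliated sum of 14.45. Replicate 22 had Bpifa1 at 4.46, with a heart muscle sum of 10.26 and a ciliated sum of 14.04. Hhip+/- smoke replicate 13 was highest of its group for Bpifb1, Scgb3a1, Gp2, Reg3g, Ltf and Muc5ac, and NZW/LacJ air replicate 3 for Bpifb1, Bpifa1, Scgb3a1, Gp2, Reg3g and Ltf. Within groups the heart muscle sum had r of 0.75 with Bpifb1, 0.68 with Bpifa1, 0.59 with Gp2, 0.47 with Ltf and 0.02 with Scgb1a1. The basal cell and large airway sum had r of 0.75 with Gp2, 0.65 with Bpifb1, 0.60 with Scgb3a1, 0.59 with Bpifa1 and 0.90 with Ltf, which the sum includes. Without Ltf in the sum these were 0.30 with Gp2, 0.27 with Bpifb1, 0.19 with Scgb3a1, 0.27 with Bpifa1 and 0.34 with Ltf. The ciliated sum had r between 0.36 with Reg3g and 0.45 with Bpifb1 for the 6 genes of the block. The summed signal of the other club cell markers had r of 0.17 to 0.25 with the members other than Scgb1a1, and that of the goblet cell genes 0.70 with Muc5ac and 0.47 with Gp2.

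Outside the members, a short set of genes tracked them most closely among 10274 candidates, by within-group Pearson's r over the same arrays. For Gp2 these were the trefoil peptide Tff2 (0.88), Gtsf1l (0.86) and the transcription factor Sox21 (0.81). Tff2 was also nearest to Bpifb1 (0.88), Scgb3a1 (0.88) and Ltf (0.83), and the fatty acid hydroxylase Cyp4a12b nearest to Reg3g (0.86) and Bpifa1 (0.85). Muc5ac had another set, Clca1 (0.74), Ern2 (0.71) and Tff2 (0.69), of which Clca1 and Ern2 are known from goblet cells. Scgb1a1 was nearest to Tmsb4x (0.67). Several of these genes also rose in smoke-exposed Fam13a-/- lungs, Gtsf1l by 2.13 ± 0.43 (adjusted p = 0.0013), Sox21 by 1.56 ± 0.31 (adjusted p = 0.00101, detected on 10 of 13 arrays in smoke and 1 of 6 in air) and Otx1, near Ltf at an r of 0.71, by 1.12 ± 0.29 (adjusted p = 0.0212). Tff2, the gene most like 4 of the members, differed by 0.96 ± 0.69 (adjusted p = 0.515) and did not pass.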

How the data were processed

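The deposited intensity table holds bead signals without normalization between arrays for all arrays, each with a detection p-value per probe, per the file headers. The authors' deposited log2 values of the same arrays (column medians 7.21 to 7.22, with normalization and centring not stated in any source at hand) served as an alternative, and each of their columns ranked most like its own array. Probes were named through the platform table (23978 of 25697 with a symbol). Signals were processed with neqc in limma 3.58.1 (R 4.3.3): normexp background from detection p-values, offset 16, quantile normalization and log2. Probes with detection p under 0.01 on at least 6 arrays were kept (15363), and a gene was represented by its brightest kept probe (11346 tested). A model of 8 group means (101 residual degrees of freedom) gave 13 comparisons, with moderated tests, Benjamini-Hochberg adjustment over all genes and a threshold of 0.05. Fold changes are ratios of normalized signals. The procedure was tested on simulated data. A sum of a marker list is the log2 of its genes' added linear signals. The members and lists were chosen with earlier results of these data known. Named genes were every member, the list genes that passed (at most 4 per list and comparison, by adjusted p) and the 3 genes most correlated with each member. Arrays correlated at 0.996 or less, so none was treated as a duplicate. The alternatives were the authors' values, median scaling, an offset of 50, no filter, array weights, covariates, the groups of a comparison alone, a threshold of 0.1 and arrays left out.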

Additional observations from a re-analysis of the deposited data

Results flagged for a closer look

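In 4 of 33 sets of a member probe and a group of 6 or 8 arrays, the highest or lowest array stood far from the rest of its group. Chance would give about 1 in 20 such sets if they were independent and their values continuous. Sets of 1 probe or on the same arrays are not independent, and Scgb1a1 takes few distinct values, so 4 of 33 is not read as an excess. Scgb1a1 was lowest in NZW/LacJ air replicate 1, at 15.38, against 15.49 for the next array and 15.58 at the other end. The other 3 concern the second Ltf probe, which was detected on 4 arrays and was not tested. It was highest in Fam13a-/- air replicate 5, at 5.58 against 4.84 for the next array, in NZW/LacJ smoke replicate 3, at 5.85 against 4.89, and in NZW/LacJ air replicate 3, at 6.04 against 5.14.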

How the results depend on the processing

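No difference of a member that passed under any setting changed its direction, and of 3192 recomputed differences 193 changed sign, none of which passed in either fit. The 2 genes that rose in Fam13a-/- smoke against air became 1 with median scaling, 1 with no filter on dim probes, 5 with array weights, 4 with only the comparison's groups, 1 with the heart muscle sum as a covariate, 0 with the ciliated sum, 0 with the large airway sum without Ltf (all 3 chosen after seeing the data) and 1 to 4 with an array left out. The 4 genes higher in Fam13a-/- than C57BL/6J smoke became 1 with median scaling, 2 with no filter, 0 with the heart muscle, 0 with the ciliated and 0 with the large airway sum, and 1 to 5 with an array left out. For NZW/LacJ against C57BL/6J smoke, the 3 genes became 7 with array weights, 1 with the Xist signal as a covariate, 0 with a term for consecutively numbered arrays (also 0 with that term and without the 2 arrays lacking H2-Ea), 6 at a threshold of 0.1, 1 with the heart muscle sum, 0 with the ciliated sum (1 and 1 without the 2 arrays), 6 with the large airway sum and 0 to 6 with an array left out (6 without smoke replicate 4). The 0 genes of NZW/LacJ smoke against air became 2 with array weights and 0 to 2 with an array left out. The 1 gene of NZW/LacJ against C57BL/6J air became 2 with the heart muscle sum and without the 2 arrays, and with the heart muscle or the ciliated sum Bpifa1 passed as lower (-2.04 and -2.35). The causes of these changes were not tested. With median scaling the median of all genes in Fam13a-/- smoke minus air was -0.12, against -0.03. No paired analysis was possible because the replicate numbers were given in accession order. Signal over background limits Gp2, Reg3g and Muc5ac in air, and the scanner's upper range and the quantile normalization limit Scgb1a1. Sex, slide and litter were not in the labels, so their part was not tested.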
